A study of Mus musculus with 6 samples.

Results

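A set of 9 genes that encode transcription factors and coregulators of fat cell formation were followed in mouse femur 21 days after focal radiation. They are Pparg, Cebpa, Cebpb, Cebpd, Srebf1, Klf15, Zfp423, Ppargc1a and Prdm16, chosen by name, and each of the 9 was matched to 1 of the 43346 genes of the count table. Homogenized bone, cleared of muscle, gave polyadenylated RNA libraries made with a stranded kit, 3 radiated and 3 non-radiated libraries. The mice were C57BL/6, an inbred strain, 4 months old and with no engineered allele named in the labels. The right femur received 24 Gy on day 0, the first day of the experiment, in 1 session and at 6.6 Gy per minute, aimed at 5 mm of distal metaphysis, the trabecular end of the shaft beside the growth plate. The non-radiated group was the left femur of radiated mice, so both groups share an animal with 1 treated leg, and there was no group from untreated mice. The labels do not say that the numbers 1 to 3 mark separate mice, so p-values measure the spread between these libraries. The study took day 21 to look ahead of bone loss seen at day 28.

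Fat cells arise from mesenchymal progenitors through a relay of transcription factors. Cebpb and Cebpd, basic leucine zipper proteins, are induced early and switch on Pparg, a nuclear receptor, and Cebpa, and these last factors sustain each other and turn on genes of lipid storage. Srebf1 drives fatty acid synthesis, Klf15 supports Pparg and glucose uptake, Zfp423 marks and commits preadipocytes, and Ppargc1a and Prdm16 are coregulators of the brown fat programme. In bone marrow, fat cells share a stromal progenitor with osteoblasts, and marrow fat is known to fill in after radiation. Cebpa, Cebpb and Cebpd also act in granulocytes and macrophages, Prdm16 in blood stem cells and Ppargc1a in skeletal muscle.

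Total gene counts were 34034251 to 48708383 per library. A row named AY036118 took 32.9% of the counts in non-radiated library 2 and 0.321% to 5.61% elsewhere, so that library has less depth for other genes. Levels are given as CPM, counts scaled to a common library size by the trimmed mean of M-values (TMM), which sets fold changes relative to the bulk of genes. Markers of the labelled tissue were present: Col1a1 of bone matrix was at 2984 to 6185 CPM and S100a9 of neutrophils at 3237 to 5860 CPM over the 6 libraries. Transcripts of skeletal muscle were present although muscle had been removed, and the sum of 24 muscle markers was 619, 938 and 504 CPM in non-radiated libraries 1, 2 and 3 and 2103, 6535 and 660 CPM in radiated libraries 1, 2 and 3. Only radiated library 3 lay within the non-radiated range of muscle. Because muscle goes largely with group, a fit with muscle as a covariate cannot fully separate the 2. In these bulk samples more cells of a type and more RNA per cell cannot be told apart.

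Pparg and Zfp423 rose in radiated femur, by 1.28-fold and 1.59-fold, and none of the 9 factors fell by the test. All 9 passed the filter on low counts. By edgeR's quasi-likelihood test with Benjamini-Hochberg adjustment over 18757 genes, 2 of 9 were called, against 7.8% of all genes tested (4.56% called higher and 3.24% called lower). That fit did not pair libraries by number. With the replicate number as a block 1 of the 9 was called, Pparg, and 1670 of the 18757 genes. Zfp423 then missed with an edgeR adjusted p of 0.0506. For 5 of the 9 the groups' libraries held separate ranges of CPM, with Pparg, Cebpa, Zfp423 and Ppargc1a above and Cebpd below in radiated femur. Over all genes tested this held for 25.9%, with 14.4% above and 11.5% below. The median log2 fold change of the 9 was 0.22, beside 0.00 over all genes tested. No fitted fold change of a factor reached 2.

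**Figure D1:**
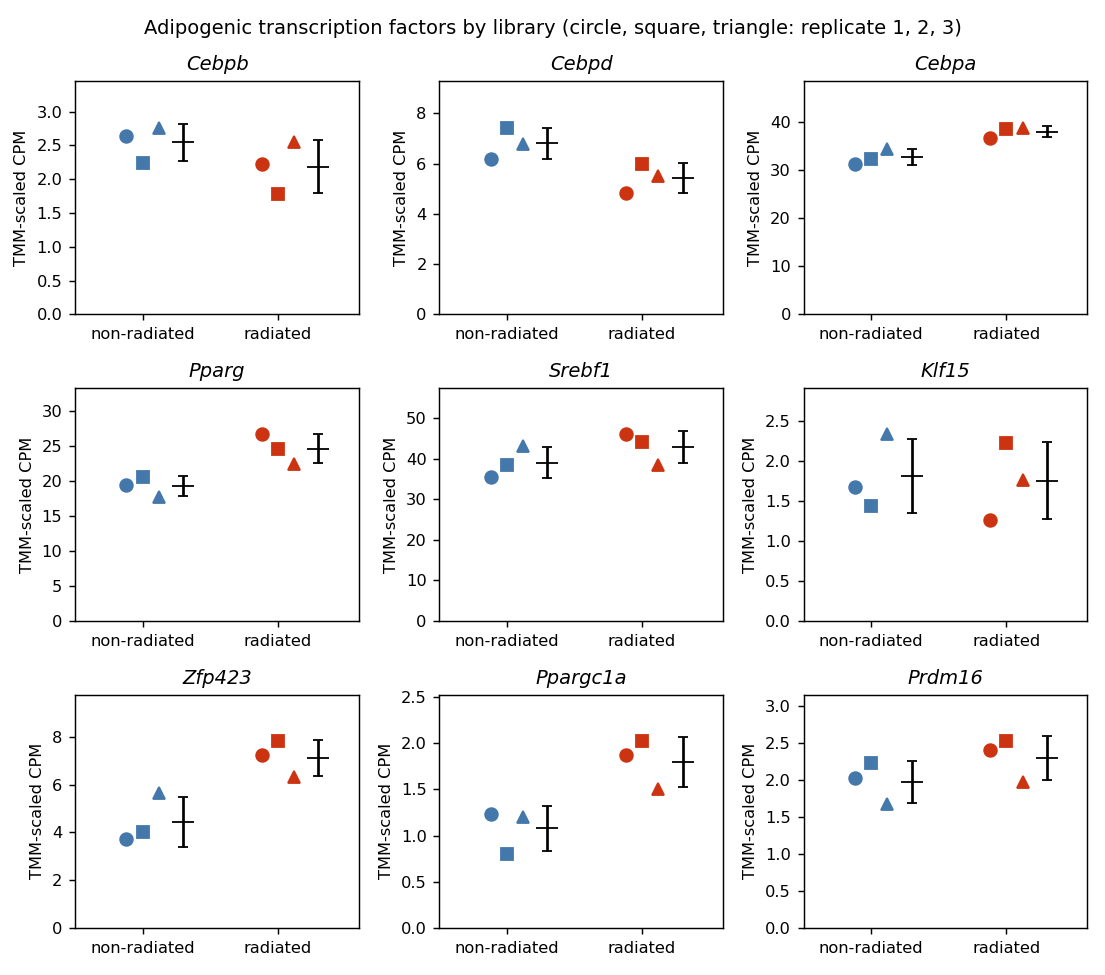
TMM-scaled CPM (vertical axis, from 0) of each factor in 3 non-radiated (blue) and 3 radiated (red) libraries, with the mean and SD in black. Pparg, Cebpa, Zfp423 and Ppargc1a sit higher in every radiated library and Cebpd lower, while the groups of Cebpb, Srebf1, Klf15 and Prdm16 overlap.

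Of the early factors, Cebpb was scarce. It was at 2.63, 2.24 and 2.76 CPM in non-radiated libraries 1, 2 and 3 and at 2.22, 1.78 and 2.55 CPM in radiated libraries 1, 2 and 3. The groups overlapped, and radiated library 2 was lowest. The log2 fold change was -0.23 with a 95% interval of -0.64 to 0.18 (edgeR adjusted p 0.530), so at 56 to 117 counts per library neither a fall nor a small rise could be told from no difference. Cebpb (ENSMUSG00000056501, chromosome 2, 167688915 to 167690418, mm10) is a gene without introns on the plus strand, and 908 of its bases lie within the span of Tmem189 on the minus strand. Whether the counting used strand is not stated, and Tmem189 had 851 to 1897 counts per library, so the split of reads between them is uncertain.

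Cebpd (ENSMUSG00000071637, chromosome 16, 15887286 to 15888466) was at 6.17, 7.43 and 6.80 CPM in the non-radiated and 4.81, 5.97 and 5.51 CPM in the radiated libraries. Every radiated library was below every non-radiated library, and radiated library 1 was lowest. The log2 fold change was -0.32 (SE 0.13, 95% interval -0.61 to -0.03), with an edgeR adjusted p of 0.194, which did not pass. Within the same replicate number the differences were -0.36, -0.31 and -0.30 on the log2 scale. The deposited table types Cebpd as a pseudogene and ends it at 15888466, whereas GENCODE M21 of the same build types it as protein-coding and ends it at 15891031, so reads beyond the nearer end lay outside its counted span.

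Markers of the neutrophil lineage, in which the C/EBP genes are also active, were lower in part. All 24 had negative log2 fold changes, 7 of them fell by edgeR, and the median was -0.35. The share called was 29.2%, beside 7.8% of all genes tested. The number that fell was 20 by DESeq2's Wald test, 15 with no filter on low counts, 12 with the replicate block, 1 under library totals alone and 4 without non-radiated library 2, radiated library 1 or radiated library 3. Their summed level was 18213 to 22608 CPM in non-radiated and 14189 to 16749 CPM in radiated libraries. Ctsg, a granule protease of young neutrophils, fell by 0.44 on the log2 scale, and Cebpe, the C/EBP gene of late granulocyte maturation, was at -0.17 (edgeR adjusted p 0.595). Each of the 24 was at 6.18 CPM or more in every library. The part of neutrophils in the C/EBP values was not tested.

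Pparg, the receptor that fat cell formation requires, was at 19.5, 20.6 and 17.7 CPM in non-radiated libraries 1, 2 and 3 and at 26.7, 24.6 and 22.5 CPM in radiated libraries 1, 2 and 3. All radiated libraries were higher, and radiated library 3 was nearest to the other group. The gene (ENSMUSG00000000440, chromosome 6, 115361221 to 115490401) rose by 0.35 on the log2 scale (SE 0.09, 95% interval 0.15 to 0.56, edgeR adjusted p 0.0451). By replicate number the differences were 0.45, 0.26 and 0.35. Leaving out a library ended the call in 5 of 6 cases, with adjusted p of 0.111, 0.0735 and 0.0912 when the first, second or last non-radiated library was dropped and 0.170 and 0.106 when radiated library 1 or 2 was, while the log2 fold change stayed between 0.29 and 0.41. With the summed muscle level as a covariate it was 0.27 (adjusted p 0.261).

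Cebpa (ENSMUSG00000034957, chromosome 7, 35119293 to 35121926), the partner of Pparg and also a factor that granulocytes need, was at 31.4, 32.4 and 34.5 CPM in the non-radiated and 36.8, 38.5 and 38.8 CPM in the radiated libraries. The groups did not overlap and each spread over less than 4 CPM. At 1.16-fold the difference was small, with a log2 fold change of 0.22 (SE 0.06, 95% interval 0.07 to 0.36) and an edgeR adjusted p of 0.0805, which did not pass. It was higher in 3 of 3 pairs of the same number and passed in 0 of 16 settings.

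The ratio of Cebpa to Cebpb counts needs no scaling between libraries. It was 11.9, 14.5 and 12.5 in the control femurs and 16.6, 21.6 and 15.2 in the radiated ones. Every radiated ratio was above every non-radiated ratio, with a mean log2 difference of 0.45. By a two-sided exact permutation test over 20 labelings p was 0.1, the smallest that 20 labelings without pairing allow, and 0.15 adjusted over 3 ratios. With labels exchanged only within replicate numbers there are 8 labelings, and p was 0.25, the smallest these allow.

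Zfp423, a zinc finger protein that commits progenitors to the fat lineage, was at 3.70, 3.99 and 5.64 CPM in non-radiated libraries 1, 2 and 3 and at 7.24, 7.81 and 6.30 CPM in radiated libraries 1, 2 and 3. Radiated library 3 and non-radiated library 3 were nearest to each other. The gene (ENSMUSG00000045333, chromosome 8, 87661810 to 87959595) rose by 0.67 on the log2 scale (SE 0.17, 95% interval 0.28 to 1.07, edgeR adjusted p 0.0487). Within numbers 1 and 2 the difference was 0.97 each, and within number 3 it was 0.16. With the replicate number as a block the adjusted p was 0.0506. The call was kept without non-radiated library 3 (0.0131) or radiated library 3 (0.0494) and lost when any of the remaining libraries was dropped, with 0.150 and 0.162 for non-radiated libraries 1 and 2 and 0.134 and 0.122 for radiated libraries 1 and 2. With the muscle covariate its log2 fold change was 0.57 (adjusted p 0.227), and with the block and that covariate together 0.11. Zfp521, which antagonizes Zfp423, differed by 0.03 on the log2 scale (edgeR adjusted p 0.904).

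Sequence before the start sites of the called genes was examined because C/EBP proteins are known to act at Pparg. RefSeq start sites of build GRCm38.p6, the assembly also known as mm10, were matched for 8 of the 9 factors, giving 13 windows of 250 bases. A relaxed C/EBP site, TTGCNNAA or its reverse complement TTNNGCAA, was found in 2 of the 13 windows, 1 of the 3 of Pparg and 1 of the 2 of Zfp423, and in 9.56% of 32851 windows of all genes. The full palindrome TTGCGCAA was in none of the 13 and in 0.164% of all windows. The hexamer AGGTCA that nuclear receptors read, or its reverse complement TGACCT, was in 3 of the 13, namely the other windows of Pparg and of Zfp423, and in 14.0% of all windows. The Pparg window with the C/EBP matches precedes the most downstream start, the one of the fat-enriched isoform Pparg2. Both windows are shown from 5′ to 3′ on the gene's strand with the relaxed C/EBP matches in capitals. Pparg is at chr6:115421816-115422065 on the plus strand and Zfp423 at chr8:87959596-87959845 on the minus strand.
Pparg: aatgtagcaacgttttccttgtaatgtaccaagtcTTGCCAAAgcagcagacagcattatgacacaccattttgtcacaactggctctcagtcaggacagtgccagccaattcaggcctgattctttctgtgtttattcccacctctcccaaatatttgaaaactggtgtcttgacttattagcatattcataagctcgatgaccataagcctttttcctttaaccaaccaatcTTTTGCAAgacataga
Zfp423: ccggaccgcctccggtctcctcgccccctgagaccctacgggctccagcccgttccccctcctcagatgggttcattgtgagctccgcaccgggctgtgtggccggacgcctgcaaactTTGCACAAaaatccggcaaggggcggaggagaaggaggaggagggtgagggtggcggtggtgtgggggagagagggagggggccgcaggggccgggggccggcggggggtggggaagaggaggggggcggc
In the Pparg window the matches begin 215 and 16 bases before the start site, and in the Zfp423 window 131 bases before it. The Pparg window is 40.8% G and C and the Zfp423 window 71.6%. These letters describe the windows, and no binding was measured. The gene counts do not separate Pparg2 from the transcript of the upstream start.

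Srebf1 (ENSMUSG00000020538, chromosome 11, 60199089 to 60222581), the driver of fatty acid synthesis, was at 35.5, 38.4 and 43.2 CPM in the non-radiated and 45.9, 44.0 and 38.5 CPM in the radiated libraries. Radiated library 3 fell inside the non-radiated range, and the pair differences were 0.37, 0.20 and -0.16. The log2 fold change was 0.13 with a 95% interval of -0.07 to 0.34 (edgeR adjusted p 0.464). Its counts do not separate the isoforms SREBP-1a and SREBP-1c, and 109 bases at its 3′ end overlap Rai1 on the opposite strand.

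Klf15 (ENSMUSG00000030087, chromosome 6, 90462576 to 90475238), which acts on Pparg and on the glucose transporter gene Slc2a4, was at 1.67, 1.44 and 2.34 CPM in the non-radiated and 1.27, 2.23 and 1.77 CPM in the radiated libraries. The groups covered nearly the same range. The log2 fold change was -0.05 with a 95% interval of -0.63 to 0.52 (edgeR adjusted p 0.933), and at 36 to 119 counts per library its sign changed without non-radiated library 3 (0.17) or radiated library 1 (0.13) and under library totals alone (0.12). Slc2a4 itself differed by 0.12 on the log2 scale (edgeR adjusted p 0.685).

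Ppargc1a, the coactivator PGC-1 alpha of mitochondrial and brown fat genes, was at 1.23, 0.799 and 1.20 CPM in non-radiated libraries 1, 2 and 3 and at 1.88, 2.02 and 1.50 CPM in radiated libraries 1, 2 and 3. The groups did not overlap. The gene (ENSMUSG00000029167, chromosome 5, 51454249 to 51567725) had, of the 9, the largest log2 fold change, 0.72 (SE 0.22, 95% interval 0.22 to 1.22), and an edgeR adjusted p of 0.0868, which did not pass at 20 to 108 counts per library. Radiated library 2 held both its highest level and the most muscle RNA. Non-radiated library 2 held its lowest level and the most muscle RNA of the non-radiated group. Radiated library 3, within the non-radiated range of muscle, was above every non-radiated library at 1.50 CPM. With the muscle covariate its log2 fold change was 0.55, and with the block and that covariate together 0.09. The part of muscle RNA in the Ppargc1a values was not tested.

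Prdm16 (ENSMUSG00000039410, chromosome 4, 154316125 to 154636873), a coregulator of brown fat identity that also maintains blood stem cells, was at 2.03, 2.24 and 1.68 CPM in the non-radiated and 2.40, 2.53 and 1.97 CPM in the radiated libraries. It was higher in 3 of 3 pairs of the same number, by 0.24, 0.18 and 0.24, but the groups overlapped. The log2 fold change was 0.23 with a 95% interval of -0.18 to 0.63 (edgeR adjusted p 0.530). Of 15 stem and progenitor cell markers 6 were called lower and none higher, with a median of -0.35 and a summed level of 360 to 376 CPM in non-radiated and 252 to 283 CPM in radiated libraries. The share called was 40%, beside 7.8% of all genes tested. Slamf1, a surface marker of blood stem cells, fell by 1.24 on the log2 scale. Log2 fold changes were positive for 3 of the 15, namely Procr (0.91, edgeR adjusted p 0.0835, all radiated libraries higher), Ly6a (0.50, adjusted p 0.216) and Fgd5 (0.09, adjusted p 0.705). The part of these cells in the Prdm16 values was not tested.

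**Figure D2:**
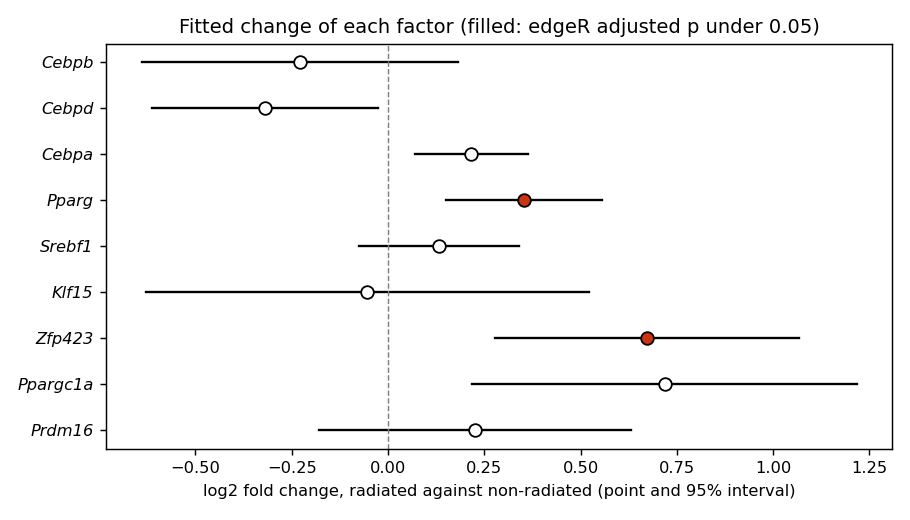
Fitted log2 fold change of each factor with its 95% interval (horizontal axis), filled where the edgeR adjusted p was under 0.05. The intervals of Pparg, Cebpa, Zfp423 and Ppargc1a lie above 0 and that of Cebpd below it, and only Pparg and Zfp423 passed the adjustment over all genes.

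Per kilobase of the length given in the table, the factors ranked alike in both groups down to Klf15. Mean levels in non-radiated libraries (n = 3, with SD) were 12.4 ± 0.595 CPM per kilobase for Cebpa, 9.71 ± 0.739 for Pparg, 6.93 ± 0.687 for Srebf1 and 5.76 ± 0.532 for Cebpd. Cebpb followed at 1.69 ± 0.182, Zfp423 at 0.793 ± 0.186 and Klf15 at 0.718 ± 0.184, and Prdm16 and Ppargc1a were lowest at 0.212 ± 0.0304 and 0.162 ± 0.0366. Neighbours in this order did not overlap between libraries except for Zfp423 with Klf15 and Prdm16 with Ppargc1a. In radiated libraries Zfp423 reached 1.27 ± 0.136 and overlapped Cebpb at 1.45 ± 0.259, while Ppargc1a at 0.271 ± 0.0405 and Prdm16 at 0.247 ± 0.0313 had changed places and still overlapped. The level of Cebpd depends on the short length used for it.

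Of 30 genes that Pparg and Cebpa activate in fat cells 29 were tested, 18 rose, 1 fell and 10 did not pass, with a median log2 fold change of 0.69. The share called was 65.5%, beside 7.8% of all genes tested. Cidec and Plin1, which coat lipid droplets, rose by 3.96 and 3.60 on the log2 scale. Cidec was at 0.521 to 0.679 CPM in the non-radiated group and at 5.98 to 11.5 CPM in the radiated group. Plin4, the adipsin gene Cfd, the glycerol channel gene Aqp7 and Pck1, an enzyme that supplies glycerol for triglyceride, rose by 3.16, 3.03, 2.64 and 3.69. Adipoq, the adiponectin gene, and Fabp4, a fatty acid carrier also found in vessels and macrophages, rose by 1.02 and 0.54. The gene that fell was Gyk, glycerol kinase, by 0.44. With the block and the muscle covariate 11 rose and none fell, and the median was 0.37. The abundant targets differed among themselves: Lpl, which frees fatty acids from lipoproteins, and Plin2, a droplet coat protein, rose by 1.08 and 0.28, while the fatty acid receptor gene Cd36 was at -0.01 and Acsl1, which activates fatty acids, at -0.04.

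Within a library, Pparg made up 1.75%, 1.74% and 1.64% of the summed counts of these targets in control femurs and 1.77%, 1.63% and 1.73% in radiated femurs, with a mean log2 difference of -0.000545 (two-sided exact permutation p 1). That sum was dominated by Acsl1, Cd36, Mgll and Lpl, which held 55.6% to 63.0% of it. Against the 12 fat cell markers, a denominator chosen after the data were seen, Pparg was at 13.8%, 13.2% and 12.6% in control femurs and 8.51%, 7.79% and 9.33% in radiated femurs. All radiated values were lower, with a mean log2 difference of -0.64. The fat cell markers, which overlap the target list, rose in 10 of 12 with a median of 2.17, and their sum was 140 to 156 CPM in non-radiated and 241 to 316 CPM in radiated libraries. The share called was 83.3%, beside 7.8% of all genes tested. Retn and Slc2a4 did not pass, at 0.59 and 0.12. Lep and Adrb3, both also in the target list, had 3 to 5 counts per non-radiated library and passed the filter only through the radiated group.

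**Figure D3:**
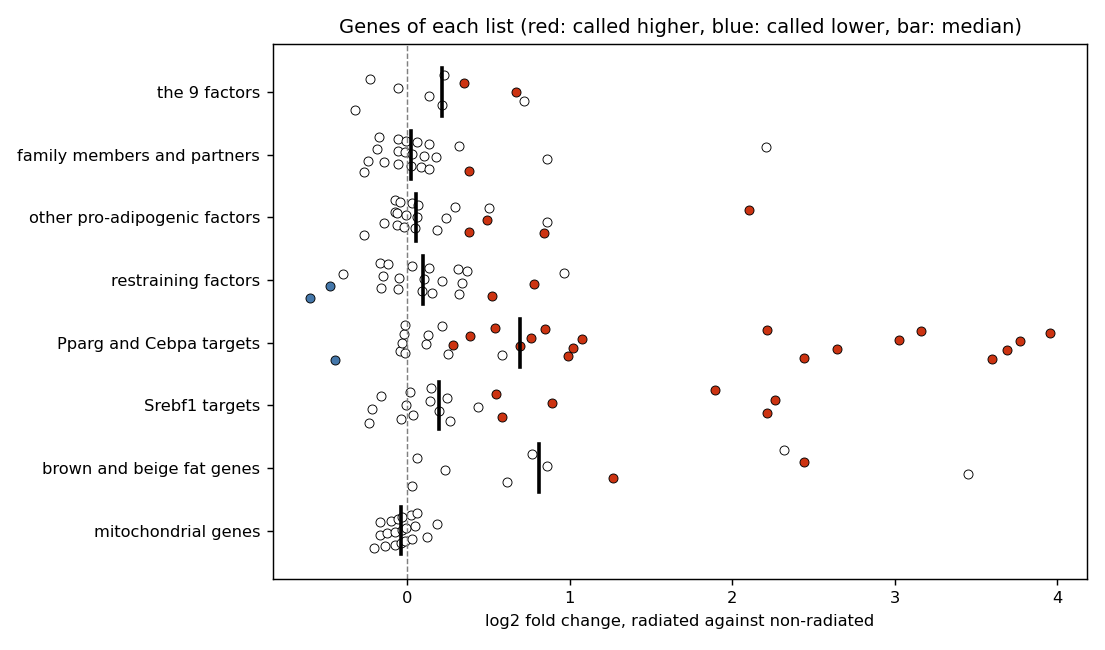
Log2 fold change (horizontal axis) of every tested gene in 8 lists, with the median of each as a bar, called genes in red (higher) or blue (lower) and others open. The 9 factors lie between -0.32 and 0.72, while targets of Pparg and Cebpa reach 3.96 and mitochondrial genes stay near 0.

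Among 20 lipid synthesis genes that Srebf1 activates, 19 were tested, 6 rose and none fell, with a median of 0.20. The share called was 31.6%, beside 7.8% of all genes tested. Pnpla3, also in the list of Pparg and Cebpa targets, had 11, 9 and 13 counts in non-radiated libraries, at the edge of the filter. Scd1, which desaturates fatty acids, rose from a range of 92.9 to 116 CPM to one of 404 to 603 CPM, by 2.26 on the log2 scale. Thrsp, Me1 and Gpam, which act in lipogenesis and triglyceride assembly, rose by 1.89, 0.90 and 0.58. Fasn, the fatty acid synthase, did not pass at 0.25 (edgeR adjusted p 0.184), and Acly, which makes its substrate, was at -0.0032. Srebf1 was 4.21%, 4.53% and 4.89% of the summed counts of the list in control femurs and 3.18%, 3.21% and 3.20% in radiated femurs (mean log2 difference -0.50, exact permutation p 0.1 and 0.15 adjusted over 3 ratios). Scd1 alone was 11.0% to 13.8% of that sum in non-radiated and 33.6% to 41.7% in radiated libraries. Without Scd1, a sum chosen after the data were seen, the log2 difference was 0.00192, given as a description only. With labels exchanged within replicate numbers p was 0.25 for the whole list.

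Of 18 brown and beige fat genes linked to Ppargc1a and Prdm16 10 were tested, and all 10 had positive log2 fold changes with a median of 0.82, or 0.25 with the muscle covariate. Adrb3, Cox8b, Ppara and Kcnk3 passed the filter only through the radiated group, which favours a positive sign, so the shared sign is a description only. By edgeR 2 rose, Pdk4, a switch from glucose to fat oxidation, by 1.27 and the beta-3 adrenergic receptor gene Adrb3 by 2.44. The share called was 20%, beside 7.8% of all genes tested. Dio2, which activates thyroid hormone, and Tmem26, a beige fat marker, reached 11.7 and 22.5 CPM at most and had log2 fold changes of 0.03 and 0.06, which did not pass. Ucp1, which defines brown fat, had 4 counts in non-radiated library 3 and none in the other 5 libraries. Cidea had 8 counts in radiated library 2, 1 in radiated library 3 and none elsewhere. Cox7a1, Cox8b and Cpt1b, which muscle also expresses, were highest in radiated library 2, at 4.59, 6.54 and 12.5 CPM, and did not pass (edgeR adjusted p 0.0841, 0.109 and 0.142). The count of called genes was 4 with the replicate block and 4 without radiated library 3, 5 with no filter on low counts, 5 under library totals alone, and 1 with a mean of at least 1 CPM or with the block and the muscle covariate. The part of muscle RNA in these genes was not tested.

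Nuclear genes for mitochondria linked to Ppargc1a showed no such rise. None of 20 was called by edgeR or by DESeq2's Wald test, 1 had an unadjusted p of 0.0434 (Gabpa, at -0.13), and the median was -0.04. Without non-radiated library 3, 1 gene was called higher. Log2 fold changes ran from -0.20 for Cycs, cytochrome c, to 0.18 for Esrra, a nuclear receptor that works with PGC-1 alpha.

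Of 22 relatives and partners of the factors 1 rose (4.55%, beside 4.56% of all genes called higher). It was Rxra, the retinoid receptor that pairs with Pparg on DNA, at 43.5 to 48.6 CPM in non-radiated and 53.6 to 63.7 CPM in radiated libraries (log2 fold change 0.38, edgeR adjusted p 0.0199). Ppargc1b, the closest relative of Ppargc1a, was at 0.32 (edgeR adjusted p 0.129) with all radiated libraries higher. Ddit3, which blocks C/EBP dimers, was at 0.11 (edgeR adjusted p 0.591). With the block, with DESeq2's Wald test, with no filter and without radiated library 3, 2 of the 22 rose, and none did with the muscle covariate, alone or with the block, or when library 1 or 2 of either group was dropped. Without non-radiated library 2, 1 relative was called lower.

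Other factors that promote fat cell formation rose in 4 of 22 tested genes (18.2%, beside 4.56% of all genes called higher), with a median of 0.06. Ebf1, which acts in fat progenitors and in B cells, rose by 0.84, from a range of 133 to 152 CPM to one of 227 to 291 CPM. Mlxipl, the carbohydrate-response factor ChREBP, rose by 2.10, the liver X receptor gene Nr1h3 by 0.49, and Rxra, counted here again, by 0.38. The count was 1 with the muscle covariate, alone or with the block, or when non-radiated library 2 was dropped, and 2 when non-radiated library 1 or radiated library 1 or 2 was. Mlxipl was named after its values were seen. It had 17, 6 and 12 counts in non-radiated libraries and passed the filter only through the radiated group.

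Factors that restrain fat cell formation were split, with 2 of 22 tested genes called higher and 2 lower and a median of 0.10. The share called was 18.2%, beside 7.8% of all genes tested. Gata2, which blocks preadipocyte maturation and also maintains blood progenitors, fell by 0.60, and Runx2, the osteoblast factor, fell by 0.47. Irf4 and Foxo1, both also active in B cells, rose by 0.78 and 0.52. Under library totals alone neither fall was called. Dlk1, the preadipocyte marker Pref-1, had 2, 1 and 2 counts in radiated libraries and none in non-radiated libraries, below the filter. All 10 B cell markers of a list added after the data were seen rose, with a median of 0.76 and sums of 470 to 518 CPM in non-radiated and 735 to 907 CPM in radiated libraries. Their part in Ebf1, Irf4 and Foxo1 was not tested.

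Other cell types that express these factors also moved. Of 20 macrophage markers 10 rose and 1 fell, with a median of 0.43 and sums of 1666 to 1878 CPM in non-radiated and 1978 to 2297 CPM in radiated libraries. The share called was 55%, beside 7.8% of all genes tested. Trem2, of lipid-handling macrophages, rose by 0.77. Cd163 was the 1 marker that fell, by 0.91, while Siglec1 and Mertk of the same list rose by 0.55 and 0.36. Positive log2 fold changes were seen for 17 of the 20 and negative ones for 3. The number that rose was 6 under library totals alone, with the muscle covariate or without radiated library 1. Of 16 stromal and osteoblast markers 2 rose and 3 fell, with a median of -0.29 and sums of 5882 to 8181 CPM in non-radiated and 4570 to 5444 CPM in radiated libraries. The share of these called was 31.25%. Lepr and Pdgfra, markers of the progenitors that give rise to marrow fat, fell by 0.48 and 0.63, and Il7, a cytokine for lymphocytes, and Esm1, an endothelial proteoglycan, rose by 0.64 and 0.37. Across settings 0 to 2 stromal markers rose and 0 to 7 fell, with none called under library totals alone. Of the stem cell markers, 3 fell and 1 rose under library totals alone, and 1 rose without radiated library 3. None of 23 tested muscle markers was called by edgeR or DESeq2's Wald test, although 21 had an unadjusted p under 0.05, and 16 were called with the replicate block, 17 without radiated library 3, 21 with no filter and 22 under library totals alone. None of the listed markers was at 0 in any library, and the part of these cells in Pparg, Zfp423 or the other factors was not tested.

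**Figure D4:**
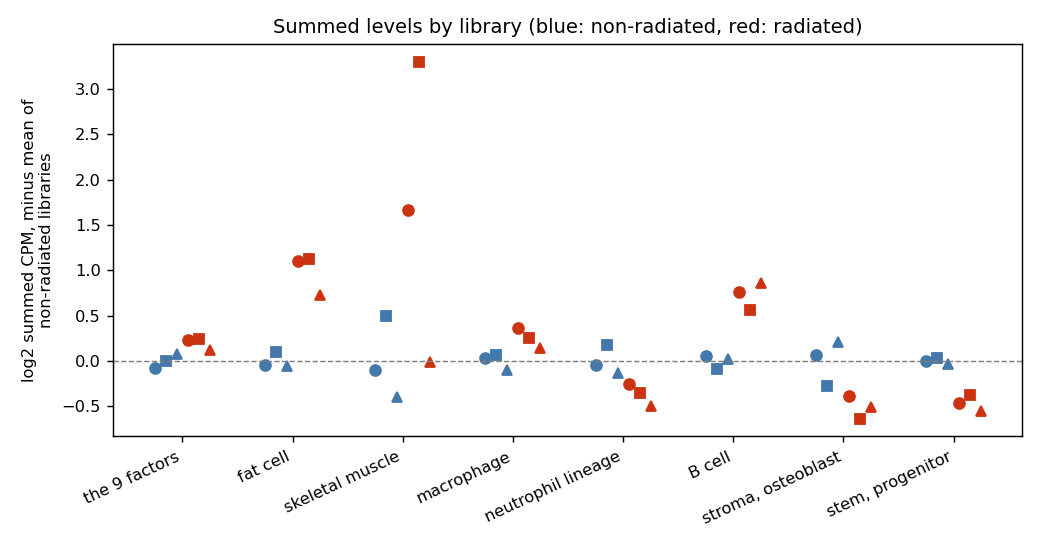
Log2 of the summed CPM of the 9 factors and of 7 marker lists in each library, minus the mean of the non-radiated libraries (blue non-radiated, red radiated; circle, square and triangle for replicates 1, 2 and 3). Fat cell, B cell and macrophage sums are higher and neutrophil, stromal and stem cell sums lower in every radiated library, while muscle is high in radiated libraries 1 and 2 only.

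As a description, the genes whose log2 CPM followed each factor most closely over the 6 libraries were listed from 15578 candidates at 1 CPM or more. For Pparg these were Thsd7a, Epb4.1l3 and Cndp2 (Pearson r 0.998, 0.992 and 0.990), and for Zfp423 they were Mllt6, Abl1 and Ehmt2 (0.993, 0.992 and 0.991). Tsr3, RP23-322P13.2 and Gm28053 were closest to Cebpa, Hk1, Gm16174 and Tal1 to Cebpd, and Il1rl2, Gm26316 and Gm26265 to Cebpb. P4ha3, Abhd15 and Thrb were closest to Ppargc1a, Tcf7, AI413582 and Rassf5 to Srebf1, Mecr, Gm5620 and Tgtp2 to Prdm16, and 2610507B11Rik, Gm13237 and Btnl2 to Klf15. The libraries share their groups, and r above 0.9 with a factor was met by 0.212% (Klf15) to 4.13% (Zfp423) of the candidates.

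**Figure D5:**
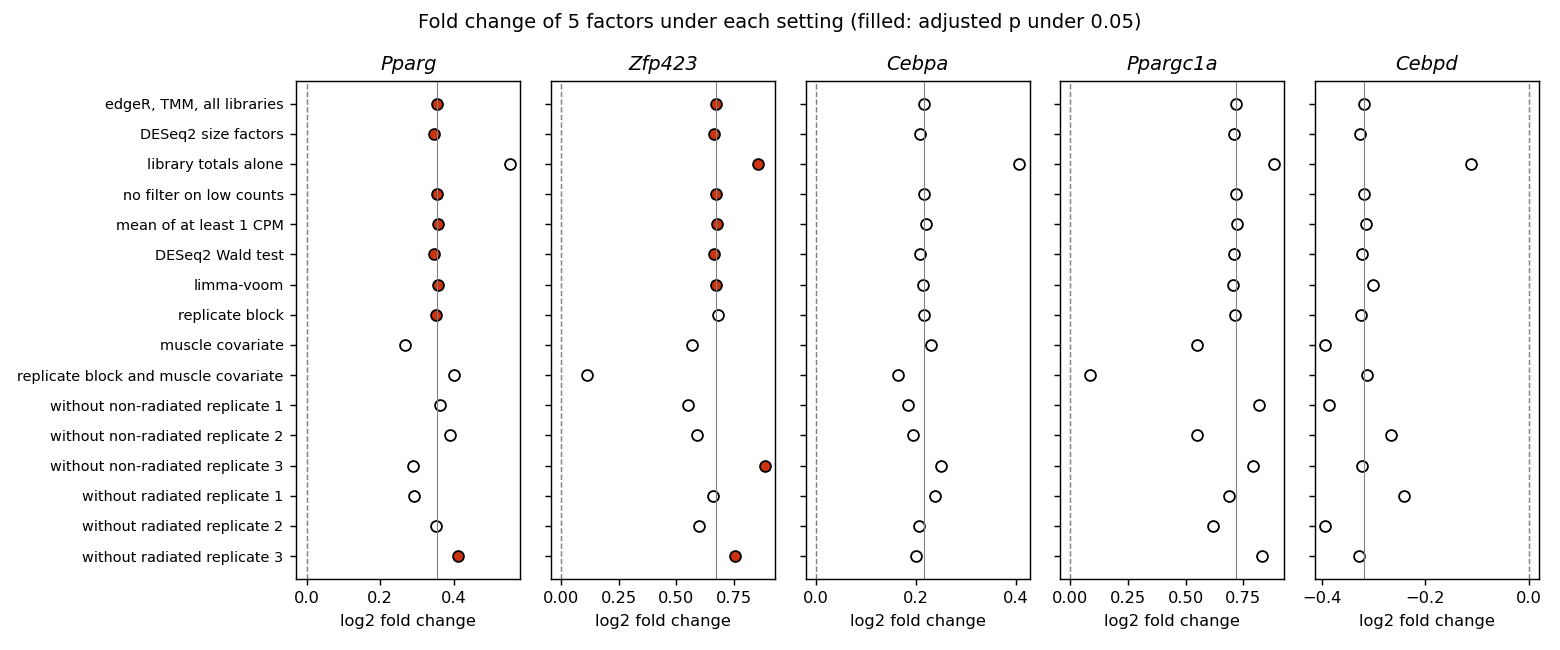
Log2 fold change (horizontal axes, each with its own scale) of 5 factors in 16 settings, filled where the adjusted p was under 0.05. Pparg was called in 8 settings and Zfp423 in 9, Cebpa, Ppargc1a and Cebpd in none, and none of these 5 changed sign.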

How the data were processed

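Polyadenylated RNA was sequenced from 6 femur libraries. Per the submitters' processing notes, bcl2fastq, STAR 2.5.2b and featureCounts of Subread were used with build mm10; the annotation, filters and strand setting are not given in the sources used here. The authors deposited raw counts per gene and RPKM for 43346 genes; RPKM entered no test because its library constant is not stated. Groups came from the labels. The test was that of edgeR 4.0.16 (R 4.3.3) on counts: filterByExpr (minimum count 10, minimum total 15), TMM, glmQLFit and glmQLFTest with group as the only term, and Benjamini-Hochberg adjustment over 18757 genes. SEs were derived from the F statistic. Replicates varied with a biological coefficient of variation of 12.9%, and counts of 20 to 108 limit the precision of the scarcest factor.

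Same-numbered libraries deviated together (r 0.186, 0.349 and 0.204 over genes, against -0.221 to 0.0203 for other numbers). This pairing comes from the data, since the labels do not give it. The main test did not pair the libraries. Pairing by number, the replicate block, was an alternative. Others were DESeq2 1.42.0 size factors and its Wald test, limma 3.58.1 voom, library totals alone, 2 other filters, a muscle covariate and leaving out each library. The block with the muscle covariate fits nearly as many terms as there are libraries, so its estimates are imprecise. Ratios were tested by exact permutation. The procedure was tested on simulated data.

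The factors and the 14 lists (277 entries, 276 matched by symbol and Adgre1 by gene ID as Emr1) were chosen with earlier results of these data known, 25 genes stand in more than 1 list, and no list was given a set test. The rule for names took all 9 factors, up to 4 genes of each list with the smallest p and a mean of at least 1 CPM, 12 genes given by name, and the 3 genes most like each factor. Other genes were named after their values were seen. A gene that the rule took is not reported here.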

Additional observations from a re-analysis of the deposited data

How the results depend on the processing

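The 15 alternatives left Pparg, Cebpa, Zfp423, Ppargc1a, Cebpd and Prdm16 with the sign of their change. The count of called factors, 2, was 1 under library totals alone (Zfp423), 1 with the replicate block (Pparg), 0 with the muscle covariate, 0 with both together, and 0 to 2 when a library was left out. The replicate block changed no other call of a factor. Over all genes the count of 1463 was 974 with the muscle covariate, 693 with the block and that covariate, and 764 to 1376 without a library. Library totals alone, in which AY036118 enters the scaling, gave 1000 calls, 85.4% higher against 58.5%, and moved the median of all genes to 0.19; the block with the covariate gave 44.9% higher. Relative to that median Pparg was at 0.36, Cebpb at -0.25 and Cebpd at -0.31. Signs turned for Klf15 (0.12 under library totals alone, 0.17 without non-radiated library 3, 0.13 without radiated library 1; without a library it ran from -0.27 to 0.17; with the block and the muscle covariate it was -0.69), for Cebpb (0.0432 with the muscle covariate) and for Srebf1 (-0.14 with the block and that covariate). The log2 difference of Pparg to its targets, near 0, ran from -0.0284 to 0.0322 without a library. With the fat cell markers in its place it was -0.64, and for Srebf1 without Scd1 it was 0.00192. Depth limits Cebpb, Klf15, Ppargc1a and Prdm16, which had 20 to 135 counts per library.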
